A study of Mus musculus with 6 samples.

Results

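The cells described here are outflow-like differentiating cardiomyocytes of the mouse embryo, picked out of a single-cell RNA data set by the number of RNA molecules counted for 9 genes. Only cells with 2500 or more genes detected, and with mitochondrial genes giving no more than 10% of the counts, were used. A member needed at least 5 molecules each of Tnnt2 (cardiac troponin T) and Ttn (titin), fewer than 10 of the ventricular light chain gene Myl2, fewer than 5 in sum of the atrial genes Vsnl1, Kcnj3 and Tmem163, and at least 2 in sum of Tdgf1, Isl1 and Abra. Of 53362 barcodes, 35962 passed the quality limits and 3322 had the Tnnt2 and Ttn counts of a cardiomyocyte. The rule was met by 425 cells, which is 12.8% of the cardiomyocytes (95% exact binomial interval 11.7 to 13.98%) and 1.18% of all cells passing. The other 2897 cardiomyocytes are the population they were set against.

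The cardiogenic region was dissected from wild type C57BL/6 embryos at E10.5 and dissociated with an enzyme, and single cells were captured in droplets. All fathers had normal glucose. Mothers had been given vehicle and were normal glycemic (3 samples), or had been given streptozotocin, a toxin of the insulin-producing beta cell, and were hyperglycemic (3 samples). The drug acted on the mother before mating, so the embryos of both groups share genotype and strain, and how many embryos made up a sample is not given in the sources used here. The barcodes carry numbers from 1 to 6 that separate 6 libraries, but no source used here pairs a number with a sample. Libraries are therefore given without a treatment, vehicle and streptozotocin are not compared, and no test of significance was run. Intervals cover counting error only.

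The outflow tract is the arterial pole of the embryonic heart, the tube that joins the right ventricle to the aortic sac and is later divided into the aorta and the pulmonary trunk. It lengthens as Isl1-positive progenitors of the anterior second heart field leave a proliferating epithelium behind the heart tube, enter the tube and switch on contractile genes. Isl1 encodes a LIM-homeodomain factor of these progenitors, Tdgf1 encodes Cripto, a co-receptor for Nodal-type ligands, and Abra encodes an actin-binding protein that promotes the activity of serum response factor. Outflow myocardium is known to differentiate later than the ventricle and to express Bmp4, Wnt11 and class 3 semaphorin genes.

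Isl1 admitted nearly all of the cells. An Isl1 molecule was counted in 422 of the 425 cells (99.3%), an Abra molecule in 177 (41.6%) and a Tdgf1 molecule in 73 (17.2%). Isl1 was the only one of these genes seen in 227 cells, while 51 cells (12%) had all of them. The level of Isl1, in CPM (counts of the gene in the pooled cells, scaled to a fixed total), was 328, 359 and 395 in the lowest, the median and the highest library, against 28.1, 30.7 and 41.1 in the other cardiomyocytes. Tdgf1 stood at 22.9 CPM (20.5 to 25.4), against 7.89 in cardiomyocytes with 10 or more Myl2 molecules and 0.0727 in those with low Myl2 and 5 or more molecules of the atrial genes. Abra stood at 49.0 CPM, near the 41.5 CPM of the Myl2-high cells. With every cell thinned to 10000 molecules, Abra was seen in 23.3% of the outflow-like cells and 23.6% of the Myl2-high cells. Tdgf1 was seen in 11.8% and 5.17% after thinning. The values of these genes, and the low Myl2 and atrial counts, follow from the rule. A gate is a cut through a range: of the members, 44 had 5 to 9 Myl2 molecules and 45 had a Tdgf1, Isl1 and Abra sum of only 2 to 4.

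The libraries held 93, 88, 36, 59, 83 and 66 of the cells, or 12.3, 13.6, 9.55, 13.2, 13.7 and 13.4% of their cardiomyocytes, and the interval of library 3 (6.78 to 12.97%) overlapped those of the others. The outflow-like cells were shallower than the other cardiomyocytes, with medians of 30516 against 46864 molecules and 6052 against 6772 genes per cell. The rule uses fixed molecule counts, so depth takes part in who is admitted. Of the members, 35 had a barcode sequence that also occurs in another library, and none of these sequences occurred more than once among them. Such barcodes were more frequent in the other cardiomyocytes, with 548 of 2897 cells, and with 140 of 388 in library 4. With shared barcodes left out, 607 of the 623 genes called higher below and 313 of the 325 called lower kept their call. Marker genes of other cell types were then summed. The macrophage markers (6 genes) summed to 0.688 CPM against 0.835. Of these, C1qa, C1qb, Tyrobp and Ptprc had no molecule in any outflow-like cell, which allows up to 0.207 CPM, and Csf1r and Fcer1g had 6 and 4 molecules. The summed neural crest markers (6 genes) were at 21.1 CPM against 6.36. Most of this was Dlx5, a homeobox gene, which was called higher (16.2 against 2.27 CPM) and seen in 79 cells, while Sox10 and Foxd3 had no molecule. The summed endothelial markers (6 genes) reached 54.7 CPM, from 27.6 to 97.9 over the libraries, against 25.4, from 19.7 to 37.2. Kdr, a receptor for vascular endothelial growth factor, made up most of it and was called higher (36.3 against 12.9 CPM). Taken apart, Kdr was called higher than in the Myl2-high cells (log2 ratio 2.36) but not than in the atrial-gene-high cells (0.80). Pecam1 was at 4.75 CPM and Cdh5 at 2.75 CPM, the latter with 23 of its 40 molecules in 1 cell of library 2. The summed cushion mesenchyme markers (6 genes) reached 229 CPM, from 167 to 294 over the libraries, against 77.8, from 65.8 to 83.8, and Prrx1 and Col1a1 were more than 2-fold higher. Of the outflow-like cells, 26.4% held 10 or more molecules of the cushion list, against 9.70% of the other cardiomyocytes. The epicardial markers summed to 54.9 CPM (libraries 20.8 to 84.8) against 115 (81.5 to 166), with Tbx18 and Krt19 called lower and Upk3b, at 27.7 against 16.5 CPM, not called. Upk3b was seen in 123 cells. Taken apart, it was called higher than in the Myl2-high cells (log2 ratio 3.76). No epicardial marker was called higher than in the atrial-gene-high cells. No marker of red blood cells was called. The pooled sum of these was 95.9 against 1375 CPM, but the libraries overlapped (71.7 to 167 against 52.7 to 4761 CPM), and the median cell had 84.0 against 67.7 CPM. Epithelial markers summed to 308 CPM against 189, most of it from the keratin genes Krt8 and Krt18, and Epcam was at 31.4 CPM against 10.2 and was seen in 52 cells. With cells left out that held 10 or more molecules of the endothelial, red blood cell, epithelial (Krt8 and Krt18 not counted), neural crest, neuron or macrophage list, 392 members were left and 608 of the 623 genes called higher below kept that call. With cells left out that held 10 or more molecules of the 4 cushion genes that are not matrix genes, 370 members were left and 596 kept it. Epicardium-rich cells were not left out in either setting. After every cell was thinned to 10000 molecules before the rule was applied, Kdr and Epcam were under 2-fold (ratios of 1.79 and 1.93). Krt19 was then 1.25-fold lower, also under 2-fold.

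A gene was called higher or lower where it reached 10 CPM in either population, differed at least 2-fold between the pooled populations and did so in the same direction in all 6 libraries. Genes of the rule were left out. Against the other cardiomyocytes, 623 of 9030 genes were called higher (6.9%) and 325 were called lower (3.6%). The median log2 ratio of all genes was 0.19, and with that median set to 0 the split moved from 65.7% higher to 50.4% higher (460 higher and 452 lower). Of the called genes named below, Dkk1 alone had libraries that overlapped between the populations. Taken apart, the Myl2-high cells gave 875 of 8997 genes called higher (9.73%) and 317 called lower (3.52%), and the atrial-gene-high cells gave 530 of 9066 higher (5.85%) and 365 lower (4.03%).

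**Figure D1:**
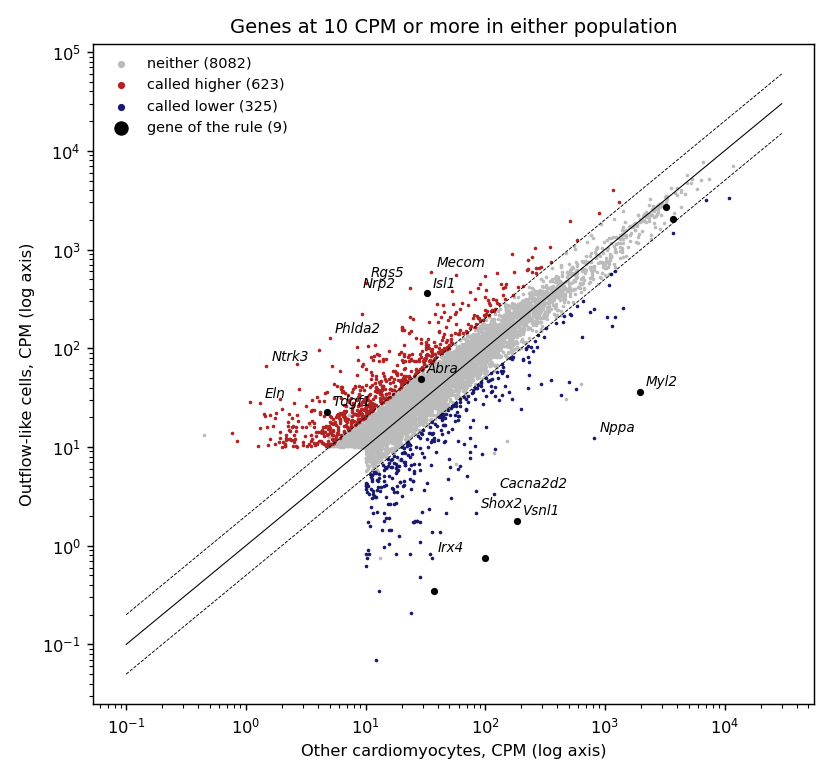
Level of each gene (CPM, log axes) in the other cardiomyocytes (x axis) and in the outflow-like cells (y axis), with lines at equal levels (solid) and 2-fold apart (dashed). The 623 genes called higher are red, the 325 called lower are blue, and the 9 genes of the rule, whose position the choice of cells fixed, are black: Rgs5, Ntrk3 and Phlda2 lie far above the lines and Nppa, Shox2 and Irx4 far below.

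The largest pooled ratio was that of Rgs5, a regulator of G protein signalling also known from pericytes. Its level was 371, 485 and 509 CPM in the lowest, the median and the highest library of outflow-like cells, and 7.23 to 12.5 CPM in the other cardiomyocytes. The pooled ratio was 46.0 (43.4 to 48.7). At 10000 molecules per cell, Rgs5 was seen in 87.8% of the outflow-like cells, 6.92% of the Myl2-high cells, 4.44% of the atrial-gene-high cells, 54.0% of Isl1-positive progenitors (defined below) and 14.4% of cells with no Tnnt2 molecule, whose median depth was 31086 molecules. Nrp2, a co-receptor for class 3 semaphorins and vascular endothelial growth factors, ran from 359 to 493 CPM against 17.5 to 32.3, a ratio of 17.6 (16.9 to 18.4). Mecom, a zinc finger transcription factor, ran from 530 to 656 CPM against 29.3 to 42.4, a ratio of 16.6 (16.1 to 17.2). Every library of outflow-like cells was above every library of the other cardiomyocytes for these genes.

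The rest of the 12 leading genes were of mixed function. Ntrk3, the receptor of neurotrophin-3, was at 65.5 CPM against 1.47 (ratio 44.5), and was seen in 204 of the cells. Phlda2, an imprinted gene that restrains growth of the placenta, was at 127 CPM against 5.02 (25.3). Dlg2, a scaffold protein of the membrane-associated guanylate kinase family, was at 225 CPM against 9.36 (24.0). Eln, which encodes elastin, the elastic fibre protein of the arterial wall, was at 27.7 CPM against 1.30 (21.3). Ntn4, a secreted netrin, the lipid kinase gene Pik3c2g, and Rem1, a small GTPase that restrains calcium channels, had ratios of 26.8, 26.1 and 15.7. Plcxd3 and Kazald1 had ratios of 23.8 and 18.1. All 12 were called higher than in the Myl2-high and the atrial-gene-high cells taken apart.

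Among the 12 genes lowest against the other cardiomyocytes were genes of chamber and pacemaker muscle. Nppa, the atrial natriuretic factor of chamber myocardium, was at 12.4 CPM against 817, and its libraries ran from 0 to 82.8 CPM in the outflow-like cells against 613 to 1023. Of its 180 molecules, 167 came from 1 cell of library 4. Without that cell the level was 0.897 CPM, and without library 4 the other cardiomyocytes were 1159-fold higher, in place of 65.9-fold. After thinning they were 4.59-fold higher. Shox2, a homeobox factor of the sinus node, was at 2.13 CPM against 83.6, with 214 CPM in the atrial-gene-high cells and 3.28 in the Myl2-high cells. Irx4, a homeobox factor of the ventricle, was at 0.757 CPM against 35.8. Cacna2d2, an auxiliary calcium channel subunit, was at 3.37 CPM against 119, 35.2-fold higher in the other cardiomyocytes (26.6 to 47.7). The Z-disc gene Myoz2, the myosin-binding protein gene Mybphl and the hormone genes Calca and Cck were between 0.482 and 1.38 CPM in the outflow-like cells and between 23.7 and 41.6 CPM in the others. Irx4, Calca, Myoz2, Ap3b2, Ppp1r17 and Ntn1 each rest on 12 or fewer molecules in all outflow-like cells, and Gpr22 on 1 molecule.

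**Figure D2:**
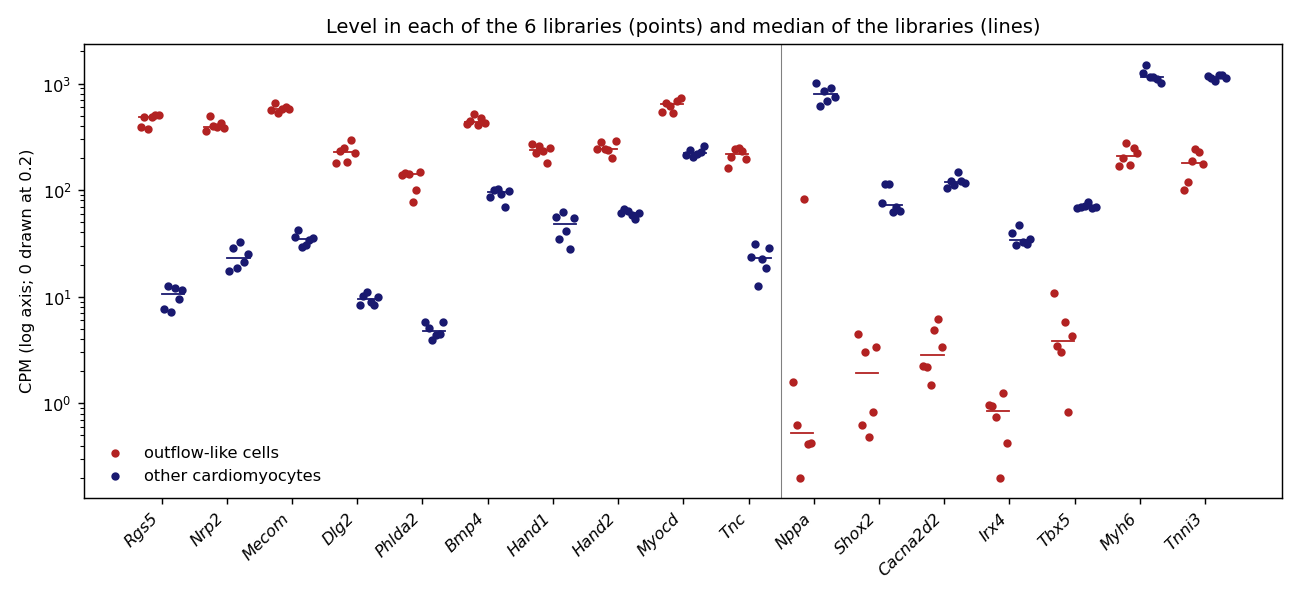
Level (CPM, log axis, 0 drawn at 0.2) of 17 genes in each of the 6 libraries, with outflow-like cells in red and the other cardiomyocytes in blue, and with a line at the median of the libraries. The 10 genes on the left are higher and the 7 on the right lower in outflow-like cells without overlap between the populations, and the single high red point of Nppa is library 4, at 82.8 CPM.

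The start regions of 3 genes that stand for the contrast are printed to show the sequence beside the values: Rgs5 as the gene with the largest ratio, Nppa as the chamber gene with the largest pooled difference in CPM among the 12 lowest, and Actc1, the cardiac actin gene, which was 3.27-fold lower. Each is the 250 bases before the RefSeq start of transcription in GRCm38.p6, 5′ to 3′ on the strand of the gene, with the matches of 1 motif in capitals. Rgs5 lies at chr1:169655251-169655500 (plus strand), and the capitals mark a GATA match on the opposite strand, 238 to 233 bases before the start. Nppa lies at chr4:148000472-148000721 (plus strand) with an NKX2-5 match 241 to 235 bases before the start. Actc1 lies at chr2:114052876-114053125 (minus strand) with a CArG box, the motif of serum response factor, 47 to 38 bases before the start.
Rgs5: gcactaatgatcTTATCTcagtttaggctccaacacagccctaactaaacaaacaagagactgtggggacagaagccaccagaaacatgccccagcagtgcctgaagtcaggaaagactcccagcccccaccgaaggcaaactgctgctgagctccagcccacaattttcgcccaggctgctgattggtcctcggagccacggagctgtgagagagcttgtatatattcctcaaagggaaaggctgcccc
Nppa: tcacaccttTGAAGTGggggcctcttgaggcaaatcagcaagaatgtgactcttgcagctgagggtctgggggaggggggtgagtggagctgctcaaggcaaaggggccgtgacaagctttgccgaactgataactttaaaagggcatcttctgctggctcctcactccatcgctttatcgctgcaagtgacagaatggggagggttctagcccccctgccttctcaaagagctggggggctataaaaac
Actc1: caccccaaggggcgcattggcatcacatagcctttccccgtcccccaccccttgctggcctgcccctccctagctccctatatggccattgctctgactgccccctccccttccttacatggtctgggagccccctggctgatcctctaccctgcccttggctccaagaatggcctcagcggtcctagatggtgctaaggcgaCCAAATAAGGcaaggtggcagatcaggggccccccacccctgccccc
The GATA motif was searched on both strands as AGATAA. The NKX2-5 motif was searched in the same way as TNAAGTG. For the E-box the letters were CANNTG, and the CArG and MEF2 boxes were searched by their usual patterns. Of all 32851 promoters in the table, 9.99% held the GATA motif, 10.1% the NKX2-5 motif, 66.2% the E-box, 1.47% the CArG box and 2.92% the MEF2 box. Of the 12 genes with the largest ratio, 10 had an entry, with 15 promoters, of which 4 held the GATA motif, 4 the NKX2-5 motif, 7 the E-box and none the CArG or MEF2 box. Of the 12 lowest, 10 had 1 promoter each, of which 3 held the GATA motif, 1 the NKX2-5 motif, 6 the E-box, 2 the MEF2 box and none the CArG box. Beside the matches in capitals, Nppa held 2 E-box matches, which are not marked, and Rgs5 and Actc1 held no other motif of the search. A match describes these letters only.

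Bmp4, Sema3c, Cxcl12, Nkx2-6, Hand2 and Mef2c were higher in the outflow-like cells. All 12 genes of the list reached 10 CPM, 6 were called higher and none lower, with a median log2 ratio of 1.13 against 0.19 over all genes. Bmp4, a ligand needed for septation of the outflow tract, was at 404, 437 and 520 CPM in the lowest, the median and the highest library, against 69.7, 95 and 103. Its ratio was 4.87 (4.73 to 5.02). Sema3c, a guidance ligand for the neural crest that enters the outflow tract, was at 148 CPM against 40.9 (3.62-fold), and library 6, at 75.1 CPM, was the lowest of its libraries. The chemokine gene Cxcl12 was at 144 CPM against 22.9 (6.26-fold), and the homeobox gene Nkx2-6, which is expressed in the pharyngeal pouches and the outflow tract, was at 21.3 CPM against 1.59 (13.3-fold). Hand2 and Mef2c, factors shared by the anterior second heart field and the right ventricle, were 4.11-fold and 2.42-fold higher. Wnt11 (29.9 against 15.0 CPM, 1.99-fold), Gata6 (241 against 129), Tgfb2 (144 against 109), Rspo3 (153 against 137) and Tbx2 (16.8 against 17.3) stayed under the 2-fold limit, and the libraries of Rspo3, Tgfb2 and Tbx2 overlapped between the populations.

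Of 5 anterior heart field genes that reached 10 CPM, 3 lay below the progenitors and above the other cardiomyocytes, while genes of the posterior field were low. For this comparison, progenitors were 1770 cells with at least 2 Isl1 molecules and a Mef2c molecule, with fewer than 2 molecules of Tnnt2 and of Ttn, and without a molecule of Epcam, Cdh5, Sox10, Elavl3 or Elavl4. This gate is mixed: it held 507 CPM of the cushion list, 3359 of the red blood cell list, 100.3 of the list of branchiomeric muscle and 402 of the posterior field list, against 229, 95.9, 23.3 and 69.0 CPM in the outflow-like cells. Their part in the comparisons with it was not tested. Against the progenitors 803 of 9433 genes were called higher (8.51%) and 782 lower (8.29%) in the outflow-like cells. Genes that only the progenitor gate used, Mef2c among them, were not left out of these counts. Epcam and Elavl4, which the gate excluded, were called higher by that choice. Tbx1, a T-box factor of the anterior field, was at 11.2 CPM, against 49.6 in the progenitors and 2.53 in the other cardiomyocytes. Foxc1 followed the same order, with 34.2, 12 and 2.31 CPM from progenitors to outflow-like cells to other cardiomyocytes. Fgf8, a growth factor of the anterior field, was highest in the outflow-like cells, at 32.1 CPM against 7.08 in the progenitors and 14.4 in the other cardiomyocytes, though not above the latter in library 6. Of the anterior list 3 genes (Mef2c, Tbx1 and Foxc1) were called higher than in the other cardiomyocytes, 2 after thinning and 1 with at least 10 molecules of Tnnt2 and Ttn required. The ratio of Foxc1 was 5.22, and 2.76 after thinning. Of the 8 posterior field genes, 4 reached 10 CPM and all 4 were called lower than in the other cardiomyocytes. The rule takes part in this, since it leaves atrial-gene-high cells in that population, and they held 685 CPM of the summed list, against 121 in the Myl2-high cells and 69.0 in the outflow-like cells. Against the Myl2-high cells 2 of 3 genes, Tbx5 and Wnt2, were called lower. Set against all other cardiomyocytes, Tbx5, a T-box factor of the atria and left ventricle, was at 5.03 CPM against 69.8. The ligand gene Wnt2 was at 9.5 CPM against 122 in the same comparison. Tbx5 was seen in 25 and Wnt2 in 49 of the 425 cells.

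Cardiac transcription factors did not move together. Of 14, 5 were called higher and 2 lower. Hand1 was at 180, 239 and 269 CPM in the lowest, the median and the highest library, against 27.9, 48.2 and 62.8, and the atrial-gene-high cells had 2.40 CPM. Gata5 was at 99.8 CPM against 33.8 (2.95-fold), and Myocd, the coactivator of serum response factor in smooth and cardiac muscle, at 628 CPM against 227 (2.76-fold). Myocd was at 11.4 CPM in the progenitors. Gata4 was lower, at 81.4 CPM against 172, as was Tbx5. Nkx2-5, the homeobox factor of early heart muscle, was at 89.7 CPM against 168 and 18.3 in the progenitors, and Tbx20 at 362 CPM against 232 and 76.4. Srf (22.4 against 23.8 CPM), Mef2a (132 against 123) and Prox1 (32.4 against 33.1) had overlapping libraries.

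The sarcomere genes were above the progenitors and in part below the chambers. The choice of cells fixes the first of these in large part, since members needed Tnnt2 and Ttn and progenitors were to lack them. The Myl2 limit bears on the second, to an extent that was not tested. Among cells that met the other conditions, Tnnt2 was at 1338 CPM with 0 Myl2 molecules, 4569 with 10 to 19 and 3978 with 20 or more. All 24 genes of the sarcomere list were called higher than in the progenitors, and 20 of them lay between progenitors and other cardiomyocytes. Summed, they made up 2.87% of the counts of outflow-like cells, 5.62% of those of the other cardiomyocytes and 0.0892% of those of the progenitors. Against the other cardiomyocytes 11 of the 24 were called lower and none higher. Tnni3, the troponin I of the mature heart, was at 99.6, 181 and 246 CPM in the lowest, the median and the highest library, against 1046, 1160 and 1214, and was 6.93-fold lower (6.66 to 7.22). Myh6, the alpha myosin heavy chain, was 5.88-fold lower (207 against 1219 CPM), Csrp3, a Z-disc LIM protein, 5.50-fold lower (258 against 1422 CPM), and Actc1 3.27-fold lower (3348 against 10942 CPM). In contrast Myh7, the beta myosin heavy chain, was at 924 CPM against 761, with overlapping libraries, and Tnnt1, the slow skeletal troponin T, at 227 CPM against 163. Smyd1, a methyltransferase needed for sarcomere assembly, Myom1 and Nexn were at 331, 233 and 748 CPM against 188, 225 and 770.

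The sarcomere differences were smaller when the rule was applied to thinned cells. With all cells thinned to 10000 molecules before the rule, 439 cells were admitted, and 2 sarcomere genes were called higher and 4 lower, in place of 0 and 11. Over all genes outside the rule, 447 were called higher and 295 lower after thinning, in place of 623 and 325. The ratio of Myl3, a ventricular light chain, then moved from 0.398 to 0.850. At this depth fewer than 10 Myl2 molecules is a looser limit. Actc1 was 1.61-fold lower after thinning and lost its call, while Tnni3, Myh6 and Csrp3 were 2.95-fold, 3.19-fold and 3.01-fold lower. Genes outside the sarcomere moved as well. All 24 genes with the largest and smallest ratios kept their calls, but with smaller ratios in most cases: Rgs5 was 26.4-fold higher, Ntrk3, then above Rgs5, 29.0-fold, Phlda2 13.4-fold and Eln 13.2-fold, and Shox2 was 5.24-fold, Irx4 27.3-fold, Cacna2d2 10.8-fold and Mybphl 4.72-fold lower. Among genes described below, Trdn was 2.74-fold and Myl1 5.62-fold lower after thinning, and Smad6 was 2.32-fold higher. Nkx2-6 moved the other way, to 25.9-fold higher.

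Triadin, pump and channel genes were partly lower. Of 17 genes of the calcium cycle and of excitation, 13 reached 10 CPM, 6 were called lower and none higher. Trdn, the triadin of the calcium release complex, was at 24.4 CPM against 197, 8.08-fold lower (7.28 to 8.99). Hcn4, the pacemaker channel, was at 3.79 CPM against 24.0, and Atp2a2, the calcium pump of the sarcoplasmic reticulum, at 270 CPM against 586. Pln, which encodes the inhibitor of that pump, was at 174 CPM against 191, and its libraries overlapped. It was 9.92-fold higher than in the atrial-gene-high cells (17.6 CPM). The calcium channel Cacna1c (581 against 500 CPM) and Jph2 (110 against 80.7), which ties the channel to the reticulum, were not called, with overlapping libraries.

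Most chamber genes that the rule did not use were low as well. Of the 16 ventricular genes 15 reached 10 CPM, 10 were called lower and 2, Hand1 and Irx5, higher. Nppb, the brain natriuretic peptide, was at 3.58 CPM against 84.4, with 37 of its 52 molecules in 1 cell of library 4, and Hey2, a repressor of the compact ventricular wall, was at 2.62 CPM against 17.2. Without library 4 Nppb was 123-fold lower, in place of 23.6-fold, and after thinning it was 3.89-fold lower. Of the 14 atrial genes, the 12 that reached 10 CPM were all called lower. Myl1 was at 38.7 CPM against 577, Stard10 at 8.81 against 74.7 and Nr2f2, an orphan nuclear receptor of the atrium, at 32.8 against 122. Taken apart, the divisions differed. Against the atrial-gene-high cells 5 of 13 ventricular genes were called higher and 4 lower, and against the Myl2-high cells 2 of 15 higher and 10 lower. Of the atrial genes, 6 of 10 were called lower than in the Myl2-high cells and 13 of 13 lower than in the atrial-gene-high cells. Because Myl2 and atrial counts set the gate, low chamber genes are a description of what it selects.

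Part of the smooth muscle genes were higher in the outflow-like cells. Of 12, 10 reached 10 CPM, 4 were called higher and none lower. Myocd, given above, is also on this list and among those called higher. Set beside progenitors and other cardiomyocytes, 8 of the 10 were highest in the outflow-like cells. Members needed Tnnt2 and Ttn and progenitors were to lack them, so the choice of cells takes part in the levels above progenitors. Synpo2, an actin-bundling protein, was at 367, 403 and 464 CPM in the lowest, the median and the highest library against 67.8, 89.4 and 101. Cald1, caldesmon, was at 839 CPM against 248 and Lmod1, leiomodin, at 91.0 against 40.2. Acta2, the smooth muscle actin, was at 5703 CPM against 4809 with overlapping libraries, and Tagln at 1410 against 1349. Myh11, the myosin of mature smooth muscle, was at 1.03 CPM against 3.03. Genes of the Abra, Mrtf and Srf pathway showed no common direction, with 2 of 12 called higher (Myocd and Fhl1) and 2 lower (Fhl2 and Egr1).

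Tnc, the type I collagen genes and Emilin1 were among the extracellular matrix genes that were higher. Of 18 on the list, 16 reached 10 CPM, 8 were called higher and none lower, with a median log2 ratio of 1.23. Tnc, tenascin-C, was at 160, 220 and 248 CPM in the lowest, the median and the highest library against 12.7, 23.1 and 31.1, a ratio of 8.87 (8.45 to 9.32). Col1a2 and Col1a1, the chains of type I collagen, were 7.25-fold and 6.89-fold higher, and Emilin1, an elastic fibre protein, 5.05-fold. The level of Col1a2 was 152 CPM, against 83.7 in the progenitors and 7.14 in the Myl2-high cells. Col1a1 is also a cushion marker, and the cushion list stood higher in these cells, as given above. With the cells rich in the other cushion genes left out, the same 8 matrix genes were called higher and 1 was called lower. After thinning, 5 of the 8 were called higher and 1 gene was called lower. Postn, a matrix gene of the cushions, was at 1.72 CPM. Col4a1 (62.7 against 72.6 CPM), Col4a2 and Lama4 (24.4 against 40.0), genes of the basement membrane, were not called.

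Ligands, receptors and targets of the BMP and TGF-beta pathways were called higher in 6 of 16 cases and lower in 2. Beside Bmp4, the ligand Tgfb1 was at 32.2 CPM against 3.96 (8.14-fold). The receptors Bmpr1a (144 against 101 CPM), Bmpr2 (91.1 against 51.8) and Tgfbr1 (93.3 against 54.5) stayed under 2-fold. Of the targets that BMP signals induce, Id1 was at 577 CPM against 125, Id3 at 596 against 175, Smad6 at 147 against 41.0 and Smad7 at 116 against 47.3. Id2, at 315 against 272, had overlapping libraries. The progenitors had 494 CPM of Id1 and 783 of Id3. Bmp5 (15.3 against 53.2 CPM) and the antagonist Nog (4.13 against 10.1) were lower.

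Among Wnt genes, the receptor Fzd1 was at 40.5 CPM against 6.37 (6.36-fold) and the transcription factor Tcf7l1 at 78.4 against 24.0, while Lef1 was lower, at 20.4 against 44.6. The antagonist Dkk1 was at 16.3 CPM against 2.47 and was seen in 52 cells. Its ratio reversed after thinning. Notch pathway genes were called higher in 3 of 6 cases and lower in 1. The ligand Jag1 was at 66.5, 88.1 and 98.3 CPM in the lowest, the median and the highest library against 18.7, 24.3 and 26.2, the receptor Notch1 at 11.3 CPM against 1.90, and the target Hes1 at 87.1 against 20.8. Hey2, another target, was lower, as given above. Of the semaphorin genes, Sema3c, Sema6d (163 against 46.6 CPM) and the receptor Nrp2 were called higher, whereas Nrp1 was at 141 CPM against 158. Of the FGF genes 2 of 8 were called higher and none lower. These were the targets Etv4 and Etv5, 2.37-fold and 2.44-fold higher, while the targets Spry2 (27.5 against 24.1 CPM) and Dusp6 (27 against 19 CPM) were not called, and Spry1 and Spry4 stayed under 10 CPM. The receptors Fgfr1 (27.3 against 19 CPM) and Fgfr2 (75.8 against 57.0) were under 2-fold.

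The ligands of the Nodal pathway, in which the Tdgf1 product acts, were at or near 0, while receptors and transducers were present. Of 16 genes, 7 reached 10 CPM, and Cfc1, which encodes Cryptic, the relative of Cripto, was the only one called higher, at 13.8 CPM against 4.35. Its direction reversed (log2 ratio −0.87) when cells with 3 or more molecules of another cell type's list were left out, which kept 38 members. With a limit of 10 molecules, which kept 392 members, the log2 ratio was 1.72 and no gene of the list was called. Nodal was at 0.344 CPM, Gdf1 had no molecule in either population, and Gdf3 had none in the outflow-like cells. The receptors Acvr2a and Acvr2b were at 36.3 and 66.0 CPM against 26.9 and 46.6, and Smad2 at 75.9 against 67.9. None of these was called.

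Cell cycle genes were near the level of the other cardiomyocytes. None of the 20 was called in either direction, the median log2 ratio was −0.11, and their sum was 0.172% of counts against 0.177%. After thinning 2 of them were called lower, and 4 were in the setting that kept 38 members. In the progenitors it was 0.293%, and 7 of the 20 genes were called lower than there. After thinning, Mki67 was seen in 30.1% of the outflow-like cells, 36.7% of the Myl2-high cells, 29.9% of the atrial-gene-high cells and 57.2% of the progenitors. Cdkn1c, an imprinted inhibitor of cyclin-dependent kinases, was at 3015 CPM against 1306 in the other cardiomyocytes and 766 in the progenitors. Its libraries ran from 2311 to 3273 CPM against 1025 to 1467 in the other cardiomyocytes. Cdkn1c is 1 of 10 listed genes of cycle control, of which 8 reached 10 CPM. None of these was called higher than in the Myl2-high cells, where the largest log2 ratio was 0.92. Against the atrial-gene-high cells 1 was called higher. The list summed to 3551 CPM, against 2727 in the Myl2-high and 1057 in the atrial-gene-high cells. Ccnd2, cyclin D2, was lower than in the other cardiomyocytes, at 186 CPM against 448.

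Genes of glucose uptake and glycolysis lay between progenitors and chamber muscle in 17 of the 19 cases that reached 10 CPM. Their sum was 1.05% of counts, against 1.67% in the other cardiomyocytes and 0.746% in the progenitors. The glucose transporter gene Slc2a1 was at 177, 236 and 262 CPM in the lowest, the median and the highest library against 479, 511 and 553, with 42.8 CPM in the progenitors. Slc2a1, Pfkp, Pgk1 and Pdk1 were called lower than in the other cardiomyocytes. Taken apart, 5 of 19 were called lower than in the Myl2-high cells and 1 of 19 lower than in the atrial-gene-high cells. Those cells held 1.83% and 1.45% of counts in the list. After thinning Slc2a1 was 1.58-fold lower than in the other cardiomyocytes, none of the 19 was called lower and 1 was called higher. Thinning changed depth and the cells admitted at once. Fat and creatine metabolism genes were mostly within 2-fold, with 1 of 9 (Cd36) called lower, which was under 2-fold after thinning.

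Only part of the profile was above progenitors and other cardiomyocytes at once. Of 8814 genes at 10 CPM or more in both comparisons, 195 (2.21%) were called higher in both. Bmp4, Mef2c, Myocd, Synpo2, Cald1, Nrp2, Tnc, Eln, Rgs5, Ntrk3, Phlda2, Dlg2 and Tgfb1 were among them. The count also includes genes that the progenitor gate used: Mef2c, which it required, and Epcam, which it excluded. For Epcam, the level above the progenitors follows from the gate. By the smaller of the 2 ratios, the first 3 of these were genes outside the lists, named here after their values were seen: Gabra2, a GABA receptor subunit, was at 11.4 CPM against 0.835 and 0.772, Grhl3, a grainyhead factor, at 20.5 CPM against 1.45 and 2.14, and Psd, an exchange factor for a small GTPase, at 76.5 CPM against 8.64 and 8.59. Mecom, by contrast, was at 591 CPM in the outflow-like cells and 652 in the progenitors. Hand1 (235 and 153 CPM), Hand2 (251 and 138), Cxcl12 (144 and 145) and Id1 (577 and 494) were also within 2-fold of the progenitors.

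The 425 cells differed widely in their contractile genes. Ordered by Tnnt2 and split into groups of 142, 141 and 142 cells, a division made after values were seen, they had median Tnnt2 levels of 393, 1392 and 3935 CPM at nearly equal depth (medians of 29875.5, 29592 and 30937.5 molecules). The sarcomere list, which is not independent of Tnnt2, made up 0.828, 2.32 and 5.47% of counts, beside the 5.62% of the other cardiomyocytes. All 24 sarcomere genes were higher in the high-Tnnt2 group than in the low-Tnnt2 group, 23 of them at least 2-fold. Of 9276 genes at 10 CPM or more in either group, 32.4% were higher in the high group and 67.6% lower, and 4.97% were at least 2-fold higher and 9.25% at least 2-fold lower. Actc1 went from 524 to 2357 and 7163 CPM and Nkx2-5 from 56.0 to 73.7 and 139 CPM. The ventricular list summed to 0.105, 0.265 and 0.553% of counts, beside 0.542% in the other cardiomyocytes. Of its genes, 9 were higher and 7 lower in the high than in the low group. For the atrial list the sums were 0.0963, 0.289 and 0.629%, beside 0.907%, with 8 genes higher and 6 lower.

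Glycolysis genes went up and cell cycle genes down in the same order. Glycolysis genes summed to 0.729, 0.976 and 1.46% of counts from the low to the high group, and Cdkn1c went from 1978 to 3165 and 3910 CPM. All 20 cell cycle genes were lower in the high group, 12 at least 2-fold, and their sum went from 0.218 to 0.176 and 0.123%. Top2a, a topoisomerase of dividing cells, went from 348 to 289 and 170 CPM. Mecom went from 857 to 556 and 358 CPM, Rgs5 from 579 to 503 and 299, Ntrk3 from 91.0 to 75.6 and 29.8, and Col1a2 from 214 to 160 and 81.1, each lower in the high than in the low group in all 6 libraries. Marker lists of other cell types moved too. From the low to the high group the cushion list went from 0.0296 to 0.0145% of counts and the endothelial list from 0.00918 to 0.00222%. The epithelial list went from 0.0395 to 0.0198%, and all 6 genes of each of these lists were lower. The neuron list went up, from 0.0011 to 0.00235%. The part of such markers in the other differences was not tested. Dkk1 went from 40.3 to 7.33 and 1.03 CPM. Isl1 (384, 370 and 333 CPM), Bmp4 (391, 449 and 490) and Nrp2 (348, 505 and 385) differed less between the groups. Rspo3 went from 74.0 to 289 CPM and Wnt11 from 15.9 to 47.7 CPM between the low and the high group.

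**Figure D3:**
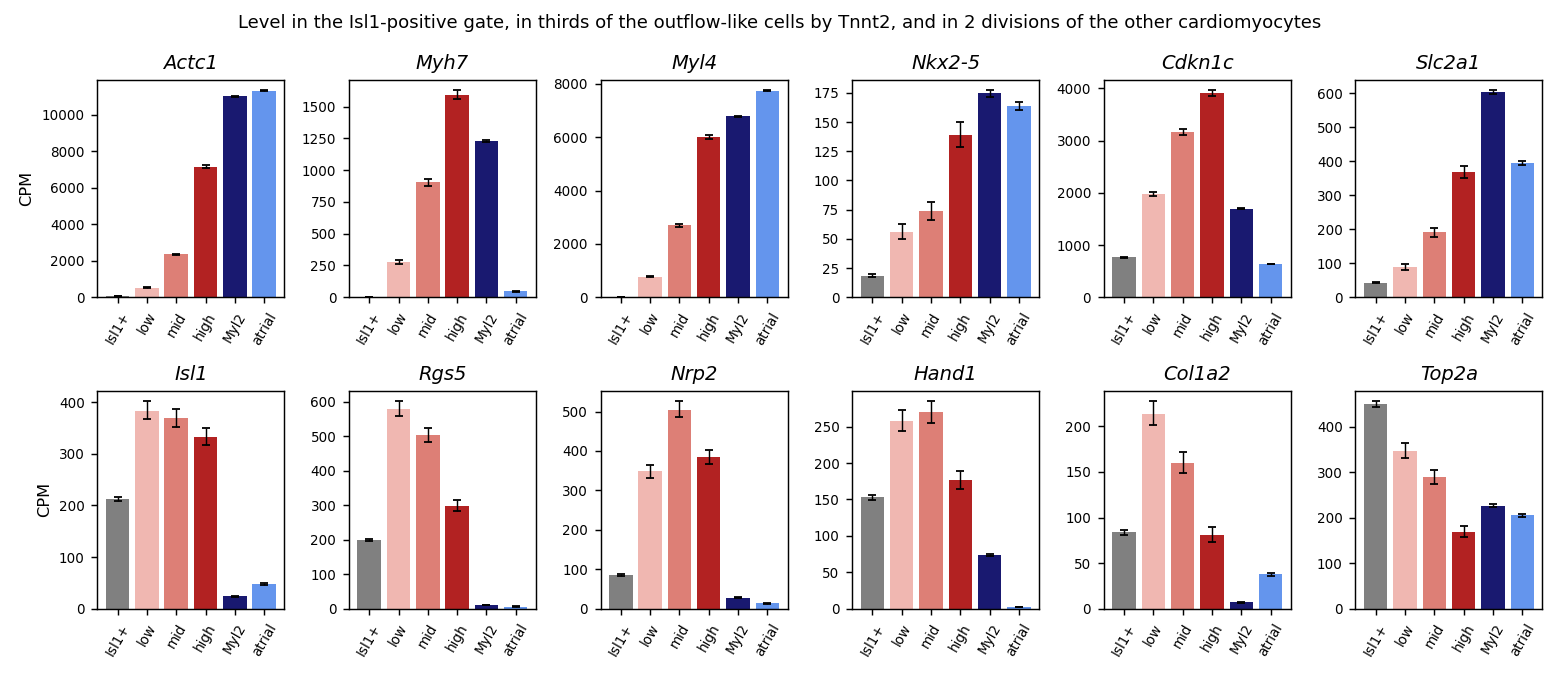
Level (CPM, bars, with 95% exact Poisson intervals) of 12 genes in 6 populations on the x axis, each panel with its own scale: the Isl1-positive progenitors (Isl1+), the outflow-like cells with low, middle and high Tnnt2 (low, mid, high), and the Myl2-high and atrial-gene-high cardiomyocytes (Myl2, atrial). Actc1, Myl4 and Slc2a1 step up from the progenitors to the chambers, while Isl1, Rgs5 and Nrp2 are highest within the outflow-like cells and Top2a steps down from the low to the high group.

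The other genes of the rule varied with Tnnt2, which is given as a description because the rule used all of them. Median Tnnt2 was 3058 CPM in the 73 cells with a Tdgf1 molecule and 1189 CPM in the other 352, and 3006 CPM in the 177 cells with an Abra molecule and 844 CPM in the other 248. Tdgf1 itself was at 2.66, 20.9 and 45.1 CPM in the low, middle and high groups, and Cfc1 at 4.70, 12.4 and 24.3 CPM. The cells with Tdgf1 were deeper, with a median of 36276 molecules against 29511.5, as were those with Abra, with 32433 against 29207, and the part of depth in this was not tested. Cdkn1c was 1.94-fold higher in the cells with Tdgf1, in 6 of 6 libraries, and Col1a2 was 2.46-fold lower, in 6 of 6. Mecom and Rgs5 were 2.23-fold and 1.68-fold lower in the cells with Abra, in 6 of 6 libraries each. The smallest number in a library was 5 cells with Tdgf1 and 16 cells with Abra.

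The levels changed by degrees across the Myl2 limit. Among cells that met all other conditions, those with 0, 1 to 4 and 5 to 9 Myl2 molecules had 567, 351 and 202 CPM of Rgs5. Just outside the limit, the 60 cells with 10 to 19 Myl2 molecules had 113 CPM of Rgs5, 244 of Nrp2 and 236 of Isl1, and the 422 cells with 20 or more had 22.1, 52.3 and 51.5 CPM. Myl3 went the other way, from 714 CPM at 0 molecules of Myl2 to 3250 at 5 to 9 and 5302 at 10 to 19. At the lower limit of the Tdgf1, Isl1 and Abra sum, the 79 cells with 0 or 1 molecule had 60.9 CPM of Rgs5, and the 45 cells with 2 to 4 had 447, near the 461 of cells with 5 or more. Those 79 cells also held 1079 CPM of the epicardial, 182 of the neuron and 171 of the branchiomeric muscle list, against 54.9, 30.7 and 23.3 in the members. Their red blood cell and neural crest lists were lower than in the members (75.5 against 95.9 and 15.5 against 21.1 CPM). For the atrial sum the step lay inside the limit. Members with no atrial molecule (398 cells) and with 1 or 2 (22 cells) had 470 and 422 CPM of Rgs5, the 5 members with a sum of 3 or 4 had 49.8, and the 11 cells just outside had 10.0.

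**Figure D4:**
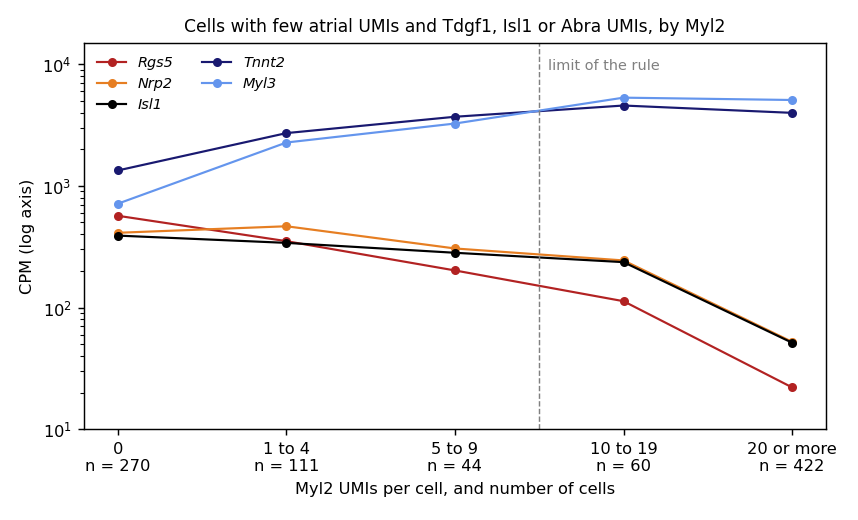
Level (CPM, log axis) of 5 genes in cells grouped by their Myl2 molecules (x axis, with the number of cells) among cardiomyocytes that met the other conditions of the rule, with the limit as a dashed line. Rgs5 goes down at each step, from 567 to 22.1 CPM, Isl1 and Nrp2 end lower after smaller steps, Nrp2 with 466 CPM at 1 to 4 molecules, and Myl3 is higher on the right than on the left.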

How the data were processed

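Single-cell RNA libraries of 6 samples were made with a 10x Genomics 3′ kit, per the labels' protocols. The authors deposited 1 matrix of raw UMI counts (whole numbers per gene and cell, 32285 genes), where a UMI marks 1 captured molecule. The submitters' processing notes name CASAVA 1.8, Cell Ranger 5.0.0, Seurat 4 and mm10. The samples' descriptions name a chromatin assay, but titles, library source and kit name RNA, and the values were used as RNA counts. As all libraries share 1 matrix with no map to samples, it was treated as 1 sample.

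Counts were summed over the cells of a population and scaled to CPM. Intervals are 95% exact Poisson for CPM, exact binomial (Clopper-Pearson) for shares, and derived from the binomial for ratios. A count of 0 was set to 3 counts in ratios. No doublet caller was run. Named genes were those of 32 lists and the 12 largest and 12 smallest ratios among called genes, without sex-linked and unnamed models, plus a few chosen after their values were seen. Some listed genes are not reported here. The cells, lists and rules were chosen with earlier results of these data known. Promoters came from the RefSeq table of GRCm38.p6. Scripts ran in Python 3.11.15 with numpy 2.4.6, scipy 1.17.1 and pandas 2.3.3.

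Members per library ranged from 36 to 93 cells and from 1337566 to 3205960 UMIs. Alternatives covered quality limits, each limit of the rule, depth, possible doublets, cushion-rich cells, shared barcodes, each library left out, other averages and other minimum levels.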

Additional observations from a re-analysis of the deposited data

How the results depend on the processing

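No paired analysis of vehicle and streptozotocin samples was run, because no library could be assigned to a sample. The sample titles number replicates within each group and do not state that equal numbers are pairs. Ratios and their intervals come from counts pooled over the libraries, and only the direction of a difference was compared within each library. The share of cardiomyocytes admitted (12.8%) was 14.4% after thinning to 10000 molecules, 11.5% with fewer than 5 and 14.6% with fewer than 20 Myl2 molecules, 11.1% with at least 10 Tnnt2 and Ttn molecules, 14.2% without shared barcodes, and 10.2% (38 of 372 cells) without cells holding 3 molecules of any other cell type's list. It ranged from 12.6 to 13.2% with each library left out. Genes called higher (623) and lower (325) were 1034 and 586 in that last, stricter doublet setting, where no library kept 20 cells and agreement between libraries was not asked, 250 and 127 at a minimum of 50 CPM, and 1225 and 806 with no minimum. Leaving out each library gave 613 to 651 and 318 to 331. Over 23 alternatives, 280 genes were followed: those of the lists, those with the largest and smallest ratios and a few chosen after their values were seen. Of the 128 called genes among them, 3 reversed. The log2 ratio of Acta1 was 0.11 and that of Dkk1 −0.10 after thinning, and that of Cfc1 −0.87 in the stricter doublet setting. The cause was not tested. After thinning, 375 of the 623 and 215 of the 325 calls were kept. A doublet setting with 10 molecules, the leaving out of cushion-rich cells and a scaling to the median were chosen after seeing the data. Without library 1 the other cardiomyocytes were 41.1-fold above in Cav1 and 69.0-fold in Ppp1r17 (25.7 and 41.5 with it), and without library 4 they were 81.6-fold above in Ntn1 (37.5 with it). Gpr22 and Ap3b2 also moved, but rest on 1 and 3 molecules. Nppa and Nppb are given in the results. With the 10-molecule doublet setting the ratio of Notch1 was 10.1 in place of 5.93, and Nr2f2 was 6.55-fold lower in place of 3.72-fold. Without cushion-rich cells the ratio of Dlx5 was 26.3 in place of 7.14, that of Pik3c2g was 45.2 in place of 26.1, and Calca was 119-fold and Ntn1 79.7-fold lower. In the stricter doublet setting Pik3c2g and Nkx2-6 had larger ratios than Rgs5. Depth limits the lowest genes, since 3 counts are 0.207 CPM over all members and up to 2.24 CPM in library 3.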
